A study of Homo sapiens with 5 samples.

Results

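The 376 regions described here had called HIF1α intervals in untreated and in arsenic-treated bronchial epithelial cells and called Nrf2 intervals only with arsenic. They were selected on the deposited peak positions: each is a merged region that overlapped, by 1 bp or more, intervals of the HIF1α control, HIF1α arsenic and Nrf2 arsenic libraries and no interval of the Nrf2 control library. They made up 376 of 21088 merged regions, or 1.78%. The presence of each factor in these regions is therefore a property of the selection and is given as a description, whereas their position in the genome and their sequence were not used to choose them.

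The data were 4 ChIP-seq libraries from BEAS-2B, an immortalized but non-cancerous human bronchial epithelial line, precipitated with an antibody against Nrf2 or against HIF1α. All cells were starved of serum overnight, and were then left untreated (control) or treated with 1 μM inorganic trivalent arsenic (iAs) for 6 h. There was 1 library for each antibody and condition, with no replicate culture, and the deposited file gives the start and end of each interval without height or read depth. It held 3204 intervals for Nrf2 in control cells and 7743 with iAs, and 6008 intervals for HIF1α in control cells and 12826 with iAs, so each factor had more called intervals in its iAs library.

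Nrf2 is the transcription factor that switches on antioxidant and detoxifying genes. Oxidants and electrophiles, arsenite among them, release it from Keap1, the adaptor that marks it for degradation, and it then binds the antioxidant response element (ARE) as a heterodimer with a small Maf protein. HIF1α is the oxygen-regulated subunit of the hypoxia-inducible factor. It pairs with ARNT and binds the hypoxia response element (HRE), whose core reads ACGTG or GCGTG, at genes of glycolysis, iron uptake and angiogenesis. The ARE core, TGACNNNGC, can contain TGACTCA, the site of AP-1 (Fos and Jun proteins), and the letters TGACTCAGC satisfy both.

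The TGACTCA sequences of these regions are shown first, since the comparisons of sequence turn on them. In 90 of the 376 regions a TGACTCA was present somewhere in the region, and in 5 of those 90 it ran on into TGACTCAGC. Those 5 are given from the deposited hg19 intervals and the GRCh37 reference sequence, with TGACTCAGC in capitals, in order of the distance from the centre of the Nrf2 iAs interval.
ARID3B intron, chr15:74838623-74838651, minus strand: tgctatgagcTGACTCAGCggccggtatg
MICALL2, chr7:1498582-1498610, plus strand: gagtcacgtcTGACTCAGCcggcgggcgg
RUNX1, chr21:36260425-36260453, plus strand: atcagctgggTGACTCAGCcctgactcgg
EPHA2 intron, chr1:16472225-16472253, minus strand: ttggaatcccTGACTCAGCtcctggccct
ENSG00000275740, chr5:145582758-145582786, minus strand: tgtcccgaaaTGACTCAGCtgtagtaaat
The first 3 lay 29, 31 and 40 bp from the centre of the Nrf2 interval, and the last 2 lay 161 and 257 bp from it.

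The usual form in these regions was TGACTCA followed by other letters. The 7 matches nearest the centre of a Nrf2 iAs interval, chosen after their values were seen, lay 0 to 7 bp from it. TGACTCA is in capitals, and the letters after it are never GC in these 7.
NOG, chr17:54776987-54777013, minus strand: cctctgtatcTGACTCAtcatctcccc
WFIKKN1, chr16:676999-677025, minus strand: tcaagcgtccTGACTCAtcccctagag
TNPO1, chr5:72143937-72143963, plus strand: aaattcgcggTGACTCAgtctggtcgg
SEC14L1, chr17:75084838-75084864, plus strand: gtccgcaggaTGACTCAgggcagccct
NEK6, chr9:127072081-127072107, minus strand: tgggactctgTGACTCAgacgccgtca
CD44, chr11:35188385-35188411, minus strand: gagtcttgagTGACTCAgtctctcccg
MAP2K3, chr17:21191417-21191443, plus strand: cactgggtgcTGACTCAcccgctgggc
The extended form in a region with intervals in all 4 libraries is shown for NQO1, the quinone reductase widely used as a readout of Nrf2. It was picked because the gene is well known, and its TGACTCAGC lay 14 bp from the centre of the Nrf2 iAs interval.
NQO1, chr16:69760900-69760928, minus strand: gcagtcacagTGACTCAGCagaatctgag

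The regions were next compared with 3 classes that each differ from them in a single library. The first, HIF1α regions without Nrf2, had HIF1α intervals in control and iAs cells and no Nrf2 interval (2418 regions). The second had intervals in all 4 libraries (335 regions), and the third gained both factors, with HIF1α and Nrf2 intervals only in the iAs libraries (273 regions). Another class that differs in a single library, with HIF1α in control cells only and Nrf2 with iAs only (604 regions), was not compared. Traits given below may therefore be shared with it. Motifs were searched on both strands in 201 bp centred on the widest HIF1α iAs interval, and shares were compared by two-sided Fisher's exact tests with Benjamini-Hochberg adjustment over 27 tests (8 motifs and the share near start sites, against 3 classes). These tests compare sets of regions from single libraries and carry no information on the spread between cultures. Of the 27, 6 had an adjusted p under 0.05: 4 against HIF1α regions without Nrf2, 2 against regions with all 4 libraries and 0 against regions gaining both. At an unadjusted p under 0.05 the third class differed in 3 motifs, TGACTCAGC, ACGTG and CACGTG. Window shares over all regions used 201 bp centred on the region, since not all regions had a HIF1α iAs interval.

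The AP-1 site TGACTCA was more frequent in HIF1α regions that gained Nrf2 than in HIF1α regions that did not. It was found in 35 of 376 windows (9.31%, 95% Wilson interval 6.77 to 12.7%) against 45 of 2418 (1.86%), with an adjusted p of 1.9e-10 by Fisher's exact test. This call was lost among regions within 1 kb of a start site, where TGACTCA was in 8 of 232 windows of the set (3.45%). Of the 376 regions 61.7% lay there, against 86.5% of HIF1α regions without Nrf2. More of the regions with all 4 libraries held TGACTCA (53 of 335, 15.8%; adjusted p = 0.046 by Fisher's exact test), a call that was lost when the window was centred on the Nrf2 iAs interval (14.4% against 18.5%; adjusted p = 0.34). Regions gaining both factors had 21 of 273 (7.69%), a difference of 1.62 percentage points with an interval from −2.94 to 5.87. In windows shifted 5 kb away the share among the 376 regions was 3.99%. Centred on the region, it was 9.31% for the 376 and 16.2% over all 21088 regions.

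The longer ARE letters were rare, as they also were in HIF1α regions without Nrf2. TGACTCAGC was in 1 of the 376 windows (0.266%) and in 2 of 2418 (0.0827%) of that class, a difference of 0.183 percentage points with an interval from −0.126 to 1.41 (adjusted p = 0.56 by Fisher's exact test). It was in 15 of 335 in regions with all 4 libraries (4.48%; adjusted p = 0.0012 by Fisher's exact test) and 6 of 273 in regions gaining both (2.20%; adjusted p = 0.11). The call against regions with all 4 libraries was lost among regions within 1 kb of a start site (a difference of −1.50 percentage points; adjusted p = 0.62 by the exact test) and with only the wider intervals of each library (−3.32; adjusted p = 0.65). Over all 21088 regions, in windows on the region centre, the share was 5.83%. In the whole region instead of the window, it was present in 1.33% of the 376 regions, 0.165% of HIF1α regions without Nrf2 (adjusted p = 0.0092 by the exact test), 17.6% of those with all 4 libraries and 9.16% of those gaining both, where the regions differ in length. The looser core TGACNNNGC was in 12.2% of the windows, against 11%, 17.9% and 14.7% in the 3 classes and 17.4% of all regions, and none of its tests had an adjusted p under 0.05.

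Among regions with TGACTCA anywhere in them, the share in which it ran on into TGACTCAGC differed between the classes. It was 5 of 90 (5.56%, 95% Wilson interval 2.40 to 12.4%) in HIF1α regions gaining Nrf2 and 4 of 110 (3.64%) in HIF1α regions without Nrf2. It was 59 of 132 (44.7%) in regions with all 4 libraries and 25 of 61 (41.0%) in regions gaining both. Over all 21088 regions it was 1734 of 4738. By two-sided Fisher's exact tests, adjusted over these 3 comparisons, the 376 regions differed from those with all 4 libraries (adjusted p = 6.5e-11) and from those gaining both (adjusted p = 1.8e-07). No difference from HIF1α regions without Nrf2 was detected (1.92 percentage points, interval −4.29 to 9.07; adjusted p = 0.73 by the exact test). Counted by match, 5 of 113 TGACTCA matches were extended in the 376 regions, 64 of 201 in regions with all 4 libraries and 26 of 69 in regions gaining both. This comparison was made after the motif shares had been seen.

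**Figure D1:**
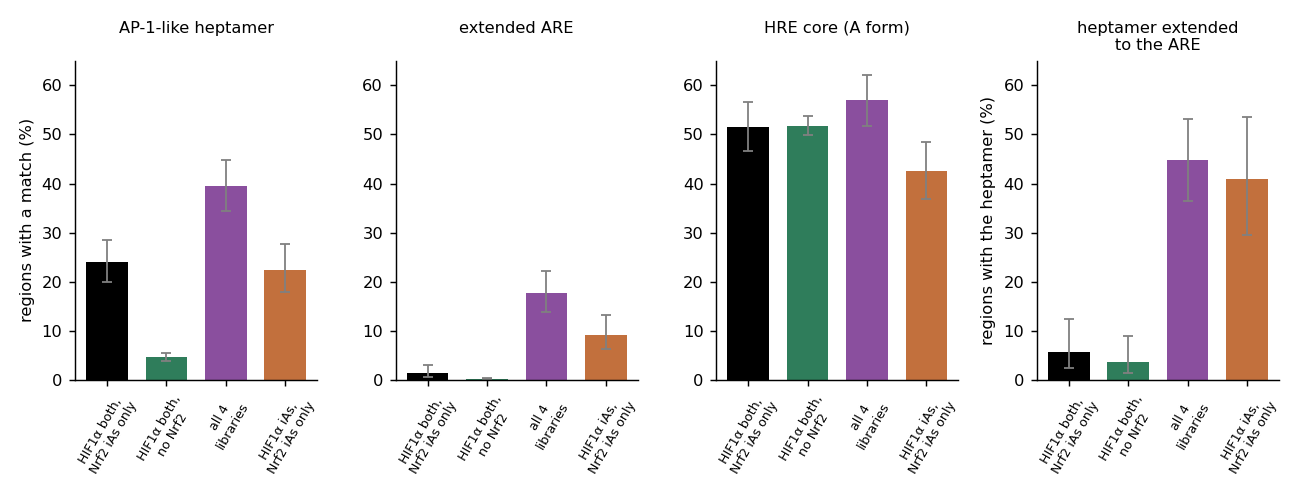
Share of regions with a motif anywhere in the region, in percent, with 95% Wilson intervals as grey bars, for HIF1α regions gaining Nrf2 (black; HIF1α in control and iAs, Nrf2 with iAs only), HIF1α regions without Nrf2 (green), regions with all 4 libraries (purple) and regions gaining both factors with iAs (orange). The panels show TGACTCA (AP-1-like heptamer), TGACTCAGC (extended ARE), ACGTG (HRE core, A form) and, of regions with the heptamer, those in which it is extended: the black bar is 23.9% in the first panel and 5.56% in the last, where the purple bar is 44.7%.

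The 2 forms of the HRE core are given apart, and neither had an adjusted p under 0.05 against any of the 3 classes. ACGTG was in 95 of the 376 windows (25.3%), against 24.1% of HIF1α regions without Nrf2 (difference 1.16 percentage points, interval −3.33 to 6.07) and 23.6% of regions with all 4 libraries. Regions gaining both had 17.2% (adjusted p = 0.054 by Fisher's exact test), and this difference passed the threshold when regions with a Nrf2 control interval within 1 kb were left out (10.1 percentage points; adjusted p = 0.017). All 4 shares stood beside 12.5% in windows 5 kb from the 376 regions and 16.9% over all regions. GCGTG was in 36.2% of the windows, against 42.8% of HIF1α regions without Nrf2 (difference −6.68 percentage points, interval −11.8 to −1.33; adjusted p = 0.054 by the exact test), 32.5% and 41.8%, with 30.9% over all regions. With the window on the region centre the first of these differences was −8.15 percentage points (adjusted p = 0.0098 by the exact test), and with the window on the Nrf2 iAs centre the second was 9.74 (adjusted p = 0.031). CACGTG, the E-box bound by factors such as USF and which contains ACGTG, was in 7.45%, 7.15%, 4.78% and 3.66% of the 4 classes in the same order, and in 4.96% of all regions.

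Letters typical of constitutive promoters were less frequent than in HIF1α regions without Nrf2. GATGGCGG, part of the YY1 site, was in 1.86% of the 376 windows against 5.29% (adjusted p = 0.018 by Fisher's exact test), and in 1.72% of all regions. CCGGAAG, the ETS site, was in 8.78% against 13.4% (adjusted p = 0.046 by the exact test), and in 6.33% of all regions. Neither difference kept an adjusted p under 0.05 once regions within 1 kb of a start site were compared with each other (3.02% against 5.88%, and 12.9% against 14.7%). Mean G+C content of the windows was 65.3% ± 8 (SD over 376 regions), against 67.8% ± 6.63 in HIF1α regions without Nrf2, 62.7% ± 9.08 in regions with all 4 libraries and 68.3% ± 6.80 in regions gaining both.

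HIF1α regions gaining Nrf2 lay at start sites less often than HIF1α regions without it. The centre of the region was within 1 kb of the start of a protein-coding transcript in 232 of 376 (61.7%, 95% Wilson interval 56.7 to 66.5%) against 2092 of 2418 (86.5%), a difference of −24.8 percentage points with an interval from −30 to −19.8 (adjusted p = 3.9e-26 by Fisher's exact test). In regions with all 4 libraries the share was 59.7% (adjusted p = 0.76 by the exact test), and in regions gaining both it was 69.2% (adjusted p = 0.12). With a limit of 5 kb the third class lay at 80.2% against 66.0% of the 376 regions (adjusted p = 0.00059 by the exact test). The median distance to a start site was 319 bp for the 376 regions and 107 bp for HIF1α regions without Nrf2. By class of position, taken in a fixed order, 159 of the 376 centres were in the 3 kb upstream of a start site, 36 in a 5′-UTR, 14 in another exon, 91 in an intron, 3 in a 3′-UTR and 73 in distal intergenic sequence. Introns and distal intergenic sequence thus held 24.2% and 19.4%, against 10.4% and 8.23% of HIF1α regions without Nrf2.

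**Figure D2:**
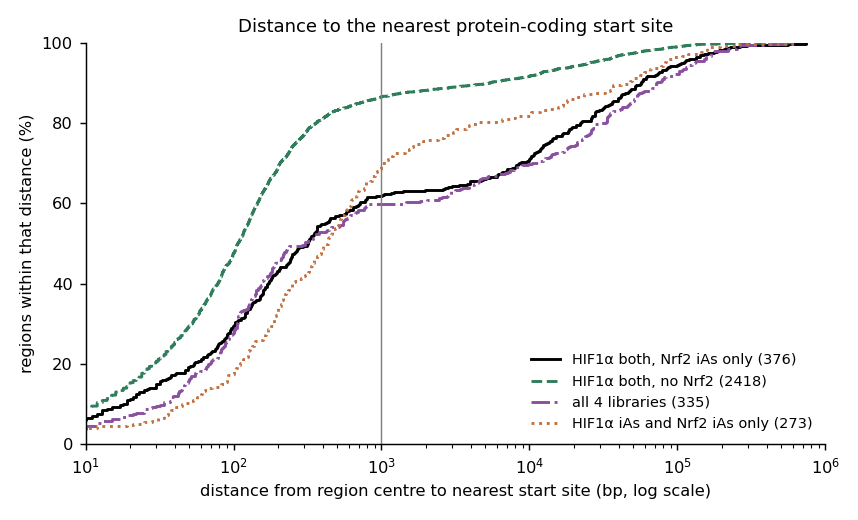
Cumulative share of regions, in percent, by the distance from the centre of the region to the nearest protein-coding start site (bp, log scale), for the 376 HIF1α regions gaining Nrf2 (black), HIF1α regions without Nrf2 (green), regions with all 4 libraries (purple) and regions gaining both factors (orange). The grey line marks 1 kb, where the black curve stands at 61.7%, close to the purple one at 59.7% and under the green one at 86.5%.

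The 232 regions at start sites and the 144 away from them differed in sequence. TGACTCA was in 8 of 232 windows at start sites (3.45%) and in 27 of 144 away from them (18.8%), an adjusted p of 1.2e-05 by Fisher's exact test over 8 motifs. CCGGAAG went the other way, with 30 of 232 (12.9%) and 3 of 144 (2.08%; adjusted p = 0.00054 by the exact test). The remaining 6 motifs had adjusted p-values from 0.13 to 0.63, and ACGTG was in 22.8% and 29.2%. This split was chosen after the shares were seen. Away from start sites, TGACTCA separated the 144 regions from the 326 HIF1α regions without Nrf2 (18.8% against 5.21%; adjusted p = 0.00024 by Fisher's exact test over 24 motif tests) and from the 135 with all 4 libraries (34.8%; adjusted p = 0.022). At start sites the shares were 3.45%, 1.34% and 3% in the same order, and no test had an adjusted p under 0.05. The low share of extended matches held in both places: it was 3 of 33 regions with TGACTCA at start sites and 2 of 57 away from them, against 22 of 42 and 37 of 90 in regions with all 4 libraries (adjusted p = 0.0002 and 2.5e-07 by Fisher's exact test).

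A merged region joins intervals that overlap, so each Nrf2 iAs interval in the 376 regions overlapped some HIF1α interval by selection. The overlaps and distances between Nrf2 and HIF1α intervals are therefore given as a description. The Nrf2 iAs interval overlapped a HIF1α control interval directly in 357 of 376 regions (94.9%), a HIF1α iAs interval in 371 (98.7%) and both in 351 (93.4%). Each library had a single interval in 345 regions. The centre of the Nrf2 interval lay at a median of 71.5 bp from the centre of the HIF1α control interval and 109 bp from that of the HIF1α iAs interval. Away from start sites these medians were 49 and 89.5 bp, and at start sites 84 and 122 bp.

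The HIF1α interval was wider with iAs than without at start sites, and about as wide away from them. The summed width of the HIF1α intervals had a median of 353 bp in control and 649 bp with iAs in the 232 regions at start sites, where 203 (87.5%) were wider with iAs. In the 144 regions away from start sites the medians were 352 and 342 bp, and 69 (47.9%) were wider with iAs. In HIF1α regions without Nrf2 the corresponding shares were 82.5% and 66.6%, and in regions with all 4 libraries 77.0% and 36.3%. The Nrf2 iAs interval was narrow in both places, with medians of 266 and 276 bp. The medians were 251 and 298 bp in regions gaining both, and over both places 263 bp there, 624 bp in regions with all 4 libraries and 333 bp over all 7743 intervals of that library. Widths come from the libraries that chose the regions and follow the number of reads and the threshold of the peak caller, so no test is given. Over whole libraries the median HIF1α interval was 276 bp in control and 340 bp with iAs, and the part of that difference in these widths was not tested.

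**Figure D3:**
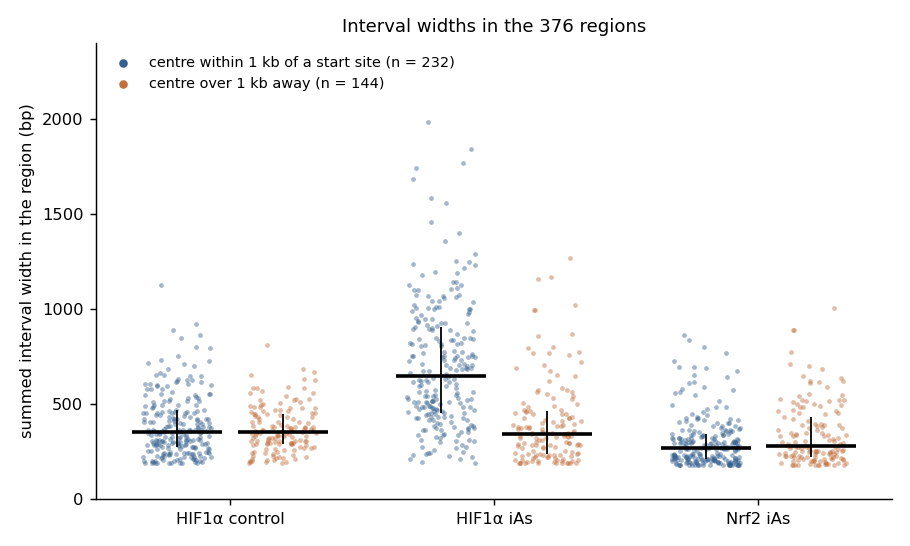
Summed width in bp of the intervals of each library in each of the 376 regions, 1 point per region, for the 232 regions within 1 kb of a start site (blue) and the 144 farther away (orange), with the median as a thick line and the quartiles as a thin one. HIF1α widths in control cells have nearly the same median in both (353 and 352 bp), while with iAs the blue points rise to a median of 649 bp and the orange ones stay at 342 bp.

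TGACTCA was nearest to the centre of Nrf2 and HIF1α control intervals. In the 90 regions that held it, the closest match lay at a median of 82.5 bp from the Nrf2 iAs centre, 84.5 bp from the HIF1α control centre and 128 bp from the HIF1α iAs centre. It lay inside the Nrf2 interval in 76 of the 90, inside the HIF1α control interval in 70 and inside the HIF1α iAs interval in 72. ACGTG was present in 194 regions, with 421 matches, or 318 where each CACGTG, which reads ACGTG on both strands, is counted once. The closest match lay at a median of 100 bp, 87.5 bp and 108 bp from the same 3 centres. A match lay inside the Nrf2 interval in 130 of the 194 and inside the HIF1α iAs interval in 178. Intervals of the 3 libraries differ in width, which sets how often a match falls inside them. Their median summed widths were 270 bp for Nrf2 iAs, 353 bp for HIF1α control and 498 bp for HIF1α iAs. The distances of TGACTCA from the centres had the same order, and the part of width in them was not tested.

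**Figure D4:**
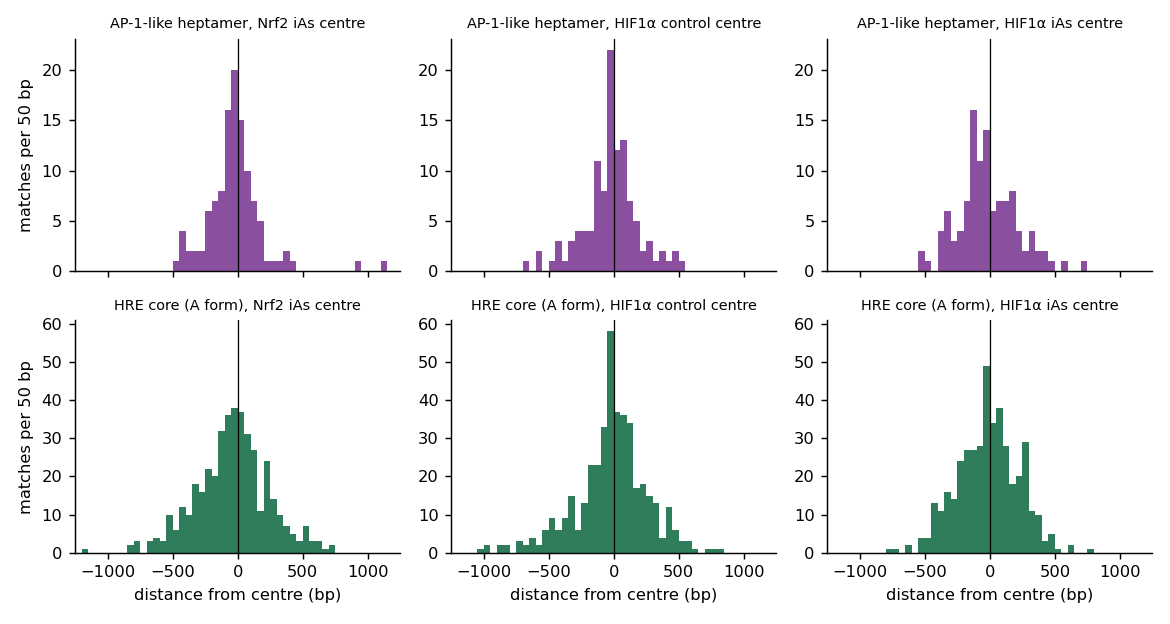
Number of matches of TGACTCA (top, purple) and ACGTG (bottom, green) per 50 bp, by distance in bp from the centre of the widest Nrf2 iAs, HIF1α control and HIF1α iAs interval of each of the 376 regions, in genome order from left to right. The 113 TGACTCA matches gather closest to the Nrf2 iAs and HIF1α control centres and are more spread around the HIF1α iAs centre, while the 421 ACGTG matches, in which each CACGTG counts on both strands and 1 region at GET4 gives 18, form a broader peak around all 3.

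Both sets of letters occurred together in 47 regions (12.5%), TGACTCA alone in 43, ACGTG alone in 147 and neither in 139. In 5 regions they shared 2 letters, so that HRE and AP-1 letters formed a single run, which is shown with the joined letters in capitals.
GTF2H1, chr11:18344055-18344084, minus strand: ggccctgggcACGTGACTCAagagcgcggc
DNAH17, chr17:76588536-76588565, plus strand: gcctgtggttTGACTCACGTctgtctgtct
TRPC4AP, chr20:33680959-33680988, plus strand: ttctctctacACGTGACTCAccgcggacat
CXXC5, chr5:139040838-139040867, minus strand: ggggatggggTGACTCACGTctcctgagct
MICALL2, chr7:1498571-1498600, minus strand: gctgagtcagACGTGACTCAgggcggctcc
The MICALL2 run, whose left flank holds the TGACTCAGC shown above read from the other strand, lies in the gene of a Rab effector. GTF2H1 encodes a subunit of the general transcription and repair factor TFIIH. The region named for DNAH17 was centred 15121 bp upstream of the nearest start site, in distal intergenic sequence. Such joined letters were in 5 of 376 regions (1.33%), 7 of 2418 HIF1α regions without Nrf2 (0.289%) and 4 of 335 with all 4 libraries (1.19%). They were in 1 of 273 regions gaining both (0.366%) and 56 of all 21088 regions (0.266%). Whole regions were searched, which differ in length, and these shares were not tested.

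Among the 10 regions with the widest Nrf2 iAs interval, 8 are described here, with Nrf2 widths of 711 to 889 bp and no Nrf2 interval in control cells by selection. In the intron of EPHA2, a receptor tyrosine kinase for ephrins, Nrf2 measured 889 bp and HIF1α went from 275 to 1169 bp. In the intron of JADE2, a PHD-finger protein, Nrf2 measured 886 bp and HIF1α narrowed from 586 to 251 bp. Wide new Nrf2 intervals thus stood beside HIF1α intervals that widened and others that narrowed.

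At the start of LGALS8, which encodes the sugar-binding protein galectin-8, Nrf2 measured 863 bp and HIF1α 493 bp in control and 894 bp with iAs. At the start of ALDH3A2, the fatty aldehyde dehydrogenase, Nrf2 intervals summed to 838 bp and HIF1α measured 197 and 706 bp. The other 4 of these 8 lay in CLU, a secreted chaperone, in PITRM1, a mitochondrial peptidase, 11.5 kb upstream of the nearest start site of SARDH, and 83.2 kb from CPN2, with Nrf2 widths of 799, 770, 771 and 711 bp.

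The 5 regions where HIF1α widened most with iAs were all at start sites, and their Nrf2 intervals were small. HIF1α went from 251 to 1839 bp at REV3L, the catalytic subunit of DNA polymerase zeta, from 211 to 1683 bp at EMD, which encodes the nuclear membrane protein emerin, and from 365 to 1765 bp at YWHAZ, a 14-3-3 protein. At PTMA it went from 653 to 1985 bp and at HNRNPK, an RNA-binding protein, from 405 to 1584 bp. Nrf2 measured 203 to 297 bp in these 5. The 5 where HIF1α narrowed most were at VPS26C (799 to 324 bp), a subunit of an endosomal recycling complex, CUEDC1 (654 to 189 bp), JADE2, CPA5 (522 to 188 bp) and 214 kb upstream of USP24 (557 to 238 bp). Of those 5, 1 was at a start site, and Nrf2 measured 299 to 886 bp.

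**Figure D5:**
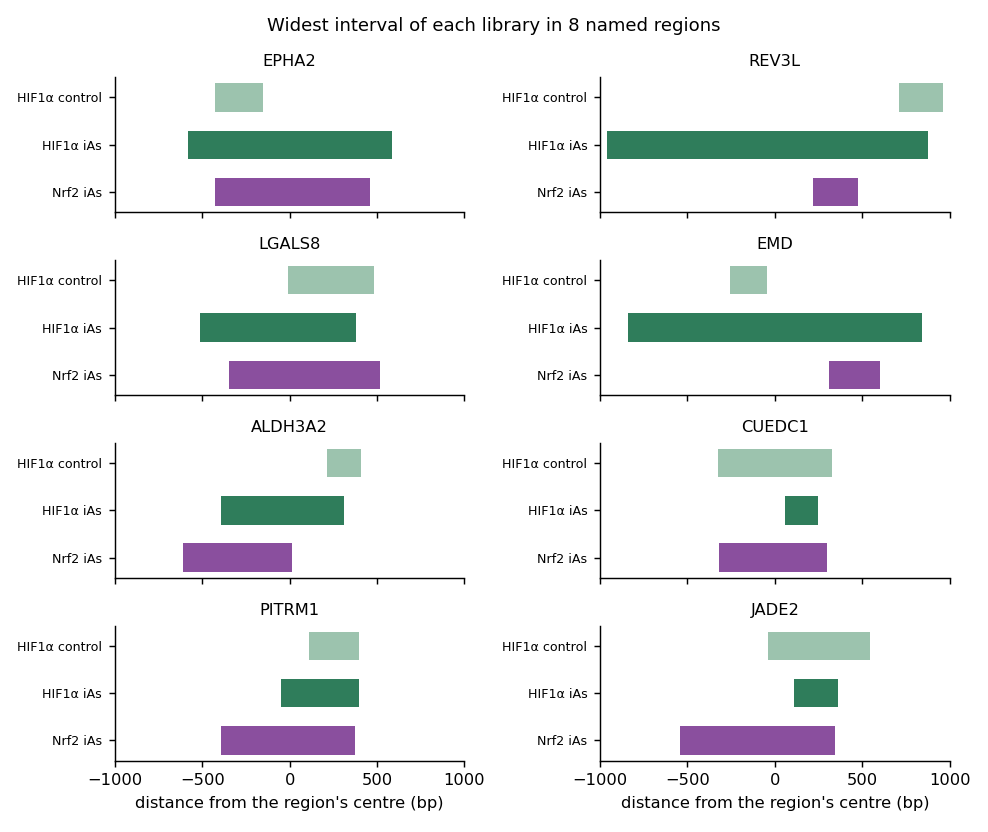
The widest interval of Nrf2 iAs (purple), HIF1α iAs (dark green) and HIF1α control (light green) in 8 of the named regions, drawn to scale in genome order by the distance in bp from the region's centre. At REV3L and EMD the HIF1α iAs interval is much longer than the control one (1839 against 251 bp and 1683 against 211 bp). At CUEDC1 and JADE2 it is shorter (189 against 654 bp and 251 against 586 bp). The Nrf2 interval overlaps a HIF1α interval in all 8, which the merging of overlapping intervals requires.

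Within 10 kb of a region from the set, measured to the span of the gene over all its annotated transcripts, lay 459 of 20163 protein-coding genes (2.28%), and 50 of the 376 regions had no such gene. The corresponding shares of all genes were 17.8% for HIF1α regions without Nrf2, 2.30% for regions with all 4 libraries and 1.77% for regions gaining both, and the counts that follow stand against these. Of 22 genes of glucose uptake and glycolysis 0 were near the set, 10 near HIF1α regions without Nrf2, 6 near regions with all 4 libraries and 1 near regions gaining both. Of 24 established Nrf2 targets the counts were 2, 0, 10 and 10 in the same order. Of 20 established HIF targets they were 3, 11, 2 and 1, and of 14 stemness genes that the study names 3, 2, 0 and 2. Of 12 hexosamine and serine-glycine genes they were 0, 3, 0 and 0, and of 12 genes of the AP-1 family and the small Maf proteins 0, 8, 3 and 0. The classes differ in size, so these counts are descriptions, and with lists this short 1 gene moves a share by several percentage points.

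The Nrf2 targets were GCLC, the catalytic subunit of the enzyme that limits glutathione synthesis, and PGD, which makes NADPH in the pentose phosphate pathway. At the start of GCLC the Nrf2 iAs interval measured 196 bp and HIF1α 235 bp in control and 478 bp with iAs. At PGD, centred 229 bp upstream of the start, the widths were 215 bp for Nrf2 and 485 and 629 bp for HIF1α. Neither region held TGACTCA, and only that of PGD held TGACNNNGC. Both therefore had small Nrf2 intervals at the promoter itself.

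The HIF targets were TFRC, INSIG2 and BHLHE40. At TFRC, the transferrin receptor that takes up iron, HIF1α measured 596 bp in control and 1060 bp with iAs and Nrf2 228 bp. At INSIG2, which restrains sterol synthesis, HIF1α measured 316 and 209 bp and Nrf2 230 bp, 263 bp upstream of the start. At BHLHE40, a basic helix-loop-helix repressor, the region lay 7.61 kb downstream of the start, with HIF1α at 386 and 507 bp and Nrf2 at 181 bp, the smallest width found in the Nrf2 iAs library. HIF1α thus widened at TFRC and BHLHE40 and narrowed at INSIG2.

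Of the stemness genes, HES1, a Notch target that represses differentiation, had the widest Nrf2 interval. Its region was centred 1.22 kb upstream of the start (chr3:193852224-193853218), where HIF1α went from 328 to 995 bp and Nrf2 measured 608 bp, and it held TGACTCA as well as CACGTG. In the intron of CD44, the hyaluronan receptor used to mark stem-like cells, the region lay 27.7 kb from the start with HIF1α at 331 and 272 bp and Nrf2 at 371 bp, around the TGACTCA printed above. At BACH1, the repressor that competes with Nrf2 for AREs, a region inside the annotated gene lay 39.8 kb upstream of the principal start, outside the basic transcripts by which positions were classed, and had HIF1α at 321 and 203 bp and Nrf2 at 211 bp.

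Of the 459 genes near the set, 13 had more than 1 region within 10 kb, and 3 of these are named after their values were seen. Neighbouring genes can share the same regions, so the 13 are not separate places. C11orf68 and DRAP1 shared theirs, as did MCRIP2, METTL26, RAB40C and WFIKKN1. This count was not compared with the other classes. CUEDC1 had 4, from 6.25 to 87.0 kb downstream of its principal start, with Nrf2 widths of 191 to 622 bp. NEK6, a mitotic kinase, had 3 in introns, 28.6, 39.7 and 51.8 kb downstream of its principal start, with Nrf2 at 519, 205 and 181 bp. DUSP1, the phosphatase that turns off stress-activated MAP kinases, had 2, at 0.157 kb downstream and 1.15 kb upstream of the start. HIF1α measured 733 and 1215 bp in the first and 239 and 528 bp in the second, and Nrf2 316 and 227 bp. Both DUSP1 regions held ACGTG and neither held TGACTCA.

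At the edge of the selection, 11 of the 376 regions had a Nrf2 control interval within 1 kb and 54 (14.4%) within 10 kb, against 3.89% within 10 kb for HIF1α regions without Nrf2. The closest were nearest to the start sites of MARCKS, PITRM1 and HECTD3, with 67, 164 and 261 bp to a Nrf2 control interval. Just outside the selection were regions near RRM2, LPIN1 and MRPL33, where the Nrf2 control interval was 189 bp, the smallest in that library, and the Nrf2 iAs interval 320, 349 and 602 bp. Of 2794 regions with HIF1α in both conditions and no Nrf2 in control cells, 376 (13.5%) had a Nrf2 iAs interval. The corresponding share was 27.3% of 2210 regions with HIF1α in control cells only and 2.88% of 9464 with HIF1α with iAs only. These shares depend on how many intervals were called in each library, and the part of that was not tested.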

How the data were processed

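Nrf2 and HIF1α ChIP-seq intervals from 4 libraries of BEAS-2B cells were read from a single deposited file of positions (hg19). The processing notes of the submitters name BWA, MACS2 2.1.0 and hg19. The methods of the study name MACS or SICER and tags reduced to equal numbers, and name other antibodies than the labels, which give Santa Cruz sc-13032 for Nrf2 and Abcam ab2185 for HIF1α. The authors deposited start, end and name of each interval, and the regions obtained by merging all intervals, but no height, score or count. Depth is therefore unknown, and whether Nrf2 signal in control cells fell just under the calling threshold could not be read. The input library was not analysed here.

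Starts were taken as counted from 0. Regions were classed by the libraries with an interval in them. All intervals ended within the chromosome lengths of the GRCh37 reference, and windows of 201 bp were read from it. Start sites came from basic transcripts of protein-coding genes in GENCODE release 44 lifted to GRCh37 (20163 genes). A centre in the 3 kb upstream of a start site counted as promoter before any other class, and untranslated 5′ sequence came before other exons and introns. Motif shares and shares near start sites were compared by two-sided Fisher's exact tests (SciPy 1.17.1, Python 3.11.15), adjusted over 27 tests. Wilson intervals, at 95%, and Newcombe intervals of differences cover counting error over regions only. G+C content, planned for a permutation test, is given without one, since regions are not replicates. The class comparison was tested on simulated regions with planted motifs.

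The regions, gene lists and tests were chosen with earlier results of these data known. Regions named are those with the 10 widest Nrf2 iAs intervals, the 5 largest increases and 5 largest decreases of HIF1α width, those within 10 kb of a listed gene, the 5 with TGACTCAGC nearest the Nrf2 centre and the 5 with TGACTCA and ACGTG nearest each other, under the gene of the nearest start site. Of the 10 widest, 2 are not reported here. The lists were of glycolysis (22 genes), HIF targets (20), Nrf2 targets (24), stemness genes (14), hexosamine and serine-glycine genes (12) and AP-1 family and small Maf genes (12).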

Additional observations from a re-analysis of the deposited data

How the results depend on the processing

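No paired analysis was possible because each antibody and condition had 1 library. Depth is unknown, and an interval that was not called does not show that a factor was absent. Values are differences in percentage points, the 376 regions minus the class compared: A, HIF1α regions without Nrf2; B, regions with all 4 libraries; C, regions gaining both factors. The cause of these changes was not tested, beyond the fewer regions left by some settings. Of 337 recomputed values 263 kept their direction and side of the threshold or, without a test, stayed near the main value. Of the others, 16 lost an adjusted p under 0.05, 13 gained it, 33 turned in direction and 12 without a test moved. Among the 263, 34 came from merging the intervals anew and 34 from autosomes and X alone, which both changed nothing. For results with an adjusted p under 0.05, 56 of 74 recomputed values kept their call, 16 lost it and 2 turned in direction. The 56 also include the values from those 2 settings, which left the regions unchanged and so say nothing about how firm a call is. The share near start sites against A, and the extension of TGACTCA to TGACTCAGC against B and C, kept their call under each setting tried for them; TGACTCA against A lost it among regions within 1 kb of a start site. Merging the intervals anew gave the same 21088 regions, and autosomes and X alone changed nothing.

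With the Nrf2 interval overlapping both HIF1α intervals directly, CCGGAAG against A (−4.61) and TGACTCA against B (−6.19) lost their call. With no Nrf2 control interval within 1 kb these were −4.39 and −6.23, also lost, while ACGTG against C gained one (10.1). With only intervals at or above the median width of their library, the rule gave 94 regions, some of them new through the loss of a narrow Nrf2 control interval. CCGGAAG (−1.47) and GATGGCGG (−4.30) against A and TGACTCAGC against B (−3.32) then lost their call, the extension of TGACTCA against A gained one (12.5), and the turned values were CACGTG against A (−0.585), TGACTCA (1.49), TGACNNNGC (1.05), start sites (−13) and G+C (−0.0449) against B, and TGACTCA (−3.45), TGACNNNGC (0.740), CCGGAAG (−0.254) and GATGGCGG (−0.0231) against C.

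With the whole region as the window, TGACNNNGC (9.64) and TGACTCAGC (1.16) against A, TGACNNNGC against B (−16.9) and TGACTCAGC against C (−7.83) gained a call, ACGTG against A (−0.183), ACGTG (−5.42), CACGTG (−3.14) and CCGGAAG (−4.97) against B and GCGTG against C (2.34) turned, and G+C against B was 4.23. On the HIF1α control centre, GATGGCGG against A (−2.78) and TGACTCA against B (−6.70) lost a call, TGACNNNGC against B gained one (−10.3), and ACGTG (−0.634) and CACGTG (−1.63) against A and CCGGAAG (−0.114) and GATGGCGG (0.239) against B turned. On the Nrf2 iAs centre, TGACTCA against B lost its call (−4.15), GCGTG against B (9.74) and TGACTCAGC against C (−4.70) gained one, GATGGCGG against B turned (2.30), and G+C was 4.91 against B and −1.20 against C. On the region centre, GCGTG against A (−8.15) and TGACTCAGC against C (−3.03) gained a call, ACGTG (−0.553) and CACGTG (−0.718) against A and TGACTCA (−0.215) and GATGGCGG (−0.236) against C turned, and G+C against B was 5.13.

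The split by position was added after seeing the data. Within 1 kb of a start site, TGACTCA (2.11), CCGGAAG (−1.74) and GATGGCGG (−2.86) against A and TGACTCAGC against B (−1.50) lost a call, ACGTG (−0.434) and CACGTG (−0.896) against A, TGACTCA against B (0.448) and TGACTCA against C (−1.31) turned, and G+C was −0.0337 against A and −1.16 against C. Farther away, CCGGAAG (−3.44) and GATGGCGG (−1.53) against A lost a call, ACGTG (−0.281) and the extension of TGACTCA (−2.21) against A, CCGGAAG against B (−0.880) and CCGGAAG (−3.87) and GATGGCGG (−1.19) against C turned, and G+C was −4.72 against A and −5.14 against C. Start sites within 3 kb and 5 kb gave calls against C (−12.6 and −14.3), and 5 kb turned the difference from B (−0.311). With 1 canonical transcript per gene, promoters held 31.4% and introns 29.0% of the 376 regions. Genes within 50 kb numbered 853.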

Other observations

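The 376 regions were spread unevenly over the chromosomes when set against all merged regions, of which they made up 1.78%. The highest share was on chromosome 21, where 12 of 257 merged regions (4.67%) belonged to the set, among them those at RUNX1, VPS26C and BACH1. The lowest were on chromosome 4, with 2 of 494 (0.405%), and chromosome 13, with 2 of 476 (0.42%). Chromosome 1 held the most, 46 of 2251 (2.04%). In 23 of the 376 regions another region of the set had its centre within 20 kb, such as the pair at DUSP1. These shares were not tested, and they were singled out after all chromosomes had been seen.

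Although no gene of the AP-1 list lay within 10 kb of a region of the set, JUN and FOSB, both AP-1 subunits, were the nearest start sites of 3 regions farther away. These 3 were picked after that count had been seen. No count at such distances is given for the other lists or classes. Within 10 kb, 8 of the 12 genes lay near HIF1α regions without Nrf2 and 3 near regions with all 4 libraries. The 2 regions upstream of JUN lay 31.3 and 32.4 kb from its start, with HIF1α at 194 bp in control and 402 bp with iAs in the first and 305 and 222 bp in the second, and Nrf2 at 364 and 251 bp. The region upstream of FOSB lay 12 kb from its start, in an intron of another gene, with HIF1α at 233 and 213 bp and Nrf2 at 288 bp. The FOSB region held TGACTCA and both JUN regions did not.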
